A study of Mus musculus with 24 samples.

Results

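The core clock loop genes Per1, Per2, Per3, Cry1, Cry2, Clock, Bmal1, Npas2, Bhlhe40 and Bhlhe41 were followed in hippocampal CA1 of mice after pilocarpine-induced status epilepticus (SE), a prolonged seizure. They were taken by name, as the genes of the transcriptional loop of the circadian clock, and make up 10 of the 18647 genes counted. Bmal1 is the gene named Arntl in older annotations. All 10 passed the filter on low counts, after which 18153 genes were tested. CA1 was dissected from brain slices of adult C57Bl/6N mice, aged at least 60 days, and its polyadenylated RNA was sequenced in 24 libraries. The SE groups had received 1 mg/kg scopolamine methyl nitrate, 335 mg/kg pilocarpine and, after the onset of SE, 4 mg/kg diazepam, and only mice that developed SE were used. They were sampled at 6, 12, 24 or 36 h, or at 72 h. The non-SE controls (Ctr) of 12, 36 and 72 h had received the same scopolamine and diazepam with saline in place of pilocarpine, so both anticholinergic and benzodiazepine exposure are shared by all groups. Each of the 8 groups had 3 libraries, and no control was sampled at 6 or 24 h. Whether each library came from a separate mouse is not given in the sources used here. The p-values therefore measure only the spread between libraries that is left after the fit removes 1 factor of unwanted variation.

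In the clock loop, CLOCK or its forebrain paralogue NPAS2 pairs with BMAL1 and activates genes through E-box sequences, among them the Per and Cry genes, whose proteins then accumulate and repress the same pair. BHLHE40 and BHLHE41 (DEC1 and DEC2) are further repressors that bind E-boxes. A second layer acts through D-box sequences, which the activators DBP, TEF and HLF and the repressor NFIL3 bind, and through the NR1D and ROR receptors, which act on Bmal1. The loop runs in most brain regions, hippocampus included, and Per1 is also known as a gene that responds quickly to neuronal activity and to glucocorticoids.

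Clock motifs just before the canonical transcript start of each gene are given as a description. The later results, which separate Per3 from the other Per genes, were known when these motifs were chosen for display. In the 250 bases before each canonical transcript start (genome GRCm39, annotation GENCODE M39), 5 motifs were searched on both strands, namely the E-box CACGTG, the related E′-box CACGTT, the D-box TTATGTAA, the cAMP response element TGACGTCA and the ROR element TAGGTCA. The windows that hold a match are given 5′ to 3′ on the strand of the gene, with the match in capitals (AACGTG is the E′-box read on the other strand).
Per1, chr11:68989231-68989266, plus strand: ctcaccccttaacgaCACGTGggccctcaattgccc
Per2, chr1:91387149-91387186, minus strand: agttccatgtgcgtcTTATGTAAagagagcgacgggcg
Per3, chr4:151129309-151129338, minus strand: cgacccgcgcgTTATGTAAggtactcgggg
Per3, chr4:151129262-151129291, minus strand: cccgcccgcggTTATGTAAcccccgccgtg
Cry1, chr10:85020970-85020999, minus strand: gaAACGTGaggtgccggtggtCACGTGggg
Cry2, chr2:92264563-92264592, minus strand: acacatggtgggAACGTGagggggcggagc
Bhlhe40, chr6:108636392-108636421, plus strand: ccgcgtccgggcCACGTGaagcgtcacgcc

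Per3 held 2 D-box matches and Per2 held 1, whereas the window of Per1 held an E-box and no D-box. Over the 15224 protein-coding genes tested, 0.591% had a D-box in this window, and only 3 genes had at least 2 (Per3, Alb and Il1rl2, 0.0197%). An E-box was found for Per1, Cry1 and Bhlhe40 and in 7.36% of all genes, and an E′-box for Cry1 and Cry2 and in 4.76%. None of the 10 genes had the cAMP response element (1.97% of all genes) or the ROR element (1.71%) in this window. Clock, Bmal1, Npas2 and Bhlhe41 had no match to any of the 5 motifs. A match is a run of letters and not a measured binding site, and its absence says only that these letters are not in these 250 bases. Annotated exons covered all 250 bases for Cry1, Clock and Bhlhe40, 241 for Bmal1, 239 for Bhlhe41 and 182 for Npas2. They covered 131 for Cry2, 88 for Per3, 23 for Per2 and 0 for Per1, whose window (68989018 to 68989267) lies inside its gene. A window before the canonical start is therefore not always the promoter. Whether a motif had a part in the expression results was not tested.

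The smallest library held 2663936 counts (Ctr 72 h replicate 3), the median library 13521590 and the largest 30133731. A gene of the loop had from 33 counts (Cry1) to 8111 counts (Per1) in a library, and the 33 counts of Cry1 were in the smallest library, so counting error weighed most on Cry1 there. Levels are given as CPM, the count scaled to library size after TMM normalization. Ctr 72 h replicate 2 stood apart, with a summed level of 1740 CPM over 8 sensory ganglion markers, against 7.85 to 70.5 CPM in the other libraries of its group, and the factor of unwanted variation in the fit set it (0.802) apart from the other Ctr 72 h libraries (-0.392 and -0.352) and from all others (-0.094 to 0.136). In SE libraries that sum ranged from 9.11 to 964 CPM. The neuronal markers (12 genes, none at 0 in any library) summed to 9430 to 14400 CPM after SE and to 12600 to 19600 CPM in controls. The 5 CA1 pyramidal markers were all detected in every library, with sums of 302 to 885 CPM after SE and 722 to 1440 CPM in controls. Ctr 12 h replicate 3 differed in markers from replicates 1 and 2 of its group. Its CA3 markers summed to 131 CPM, against 29.3 and 31.0 CPM, and its dentate markers to 94.6 CPM, against 49.0 and 33.8 CPM. Its CA1 sum was 722 CPM, against 965 and 1153 CPM, and its neuronal sum of 19560 CPM was the highest of all libraries. Astrocyte markers (8 genes) reached 12900 to 14400 CPM at 72 h after SE against 4890 to 5690 CPM in Ctr 72 h, and the 8 microglial markers reached 1250 to 1810 against 306 to 400 CPM. Called higher and lower at 12, 36 and 72 h were 1 and 2, 1 and 3, and 0 and 4 of the 12 neuronal markers, 2 and 1, 3 and 4, and 3 and 0 of the astrocyte markers, and 0 and 2, 5 and 1, and 8 and 0 of the microglial markers. For the 5 CA1 markers these numbers were 0 and 0, 0 and 3, and 0 and 2. Of 8 oligodendrocyte markers 1 was lower at 12 h, and 1 and 2 were higher at 36 and 72 h, and of 8 vascular markers 4, 4 and 3 were higher. Of the sensory ganglion markers 3, 1 and 0 were called, all higher. The 3 tested CA3 markers were not called, and of 4 dentate markers 2 were higher at 72 h. Isl1 and Pou4f1 of the ganglion list, Iyd of CA3 and Dsp and Tdo2 of the dentate list were at 0 in at least 1 library. Over all genes tested, 25.3%, 21.6% and 19.5% were called in either direction at 12, 36 and 72 h. These were 13.9% higher and 11.4% lower at 12 h, and 15.3% higher and 4.21% lower at 72 h, with 8.92% lower at 36 h. The smaller of the marker counts lie near such shares. The part of these marker differences in the results below was not tested, and in bulk tissue fewer cells of a type and less RNA per cell cannot be told apart.

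In controls, Cry2 and Bhlhe40 were the most abundant of the 10 genes per length of transcript and Cry1 the least. On the scale of CPM per kilobase of the canonical transcript, the mean level over the 9 control libraries was 38.6 ± 4.77 (SD, n = 9) for Cry2, 36.8 ± 8.67 for Bhlhe40 and 23.4 ± 2.97 for Per1. Npas2 followed at 13.4 ± 3.87, Per2 at 11.4 ± 4.21 and Per3 at 9.53 ± 2.75. Clock lay at 8.02 ± 0.47, Bmal1 at 7.14 ± 0.93, Bhlhe41 at 6.32 ± 0.971 and Cry1 at 4.8 ± 1.04. All 9 pairs of neighbours in this order overlapped in their ranges over control libraries. Within each library, however, Bhlhe40 was above Per1 and Per1 above Npas2 in 9 of 9 controls. Bhlhe41 was above Cry1 in 8 and Clock above Bmal1 in 7. The order was less steady for the others, with Cry2 above Bhlhe40 in 3 of 9 controls, Per2 above Per3 in 5, and Npas2 above Per2, Per3 above Clock and Bmal1 above Bhlhe41 in 6 each. Counting ignored strand, and the exons of Cry2, Clock, Bhlhe40 and Bhlhe41 overlap those of counted genes on the opposite strand, which makes their levels uncertain. These partners were low for Cry2 (D930015M05Rik, at most 2.71 CPM), Bhlhe40 (0610040F04Rik, at most 5.96 CPM) and Bhlhe41 (Gm43909, at most 1.89 CPM), while Tmem165, a partner of Clock, reached 37.5 CPM. Clock also overlaps the counted gene Gm7467, whose level is not given here. How far shared exons changed the counts of any of these genes was not tested.

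**Figure D1:**
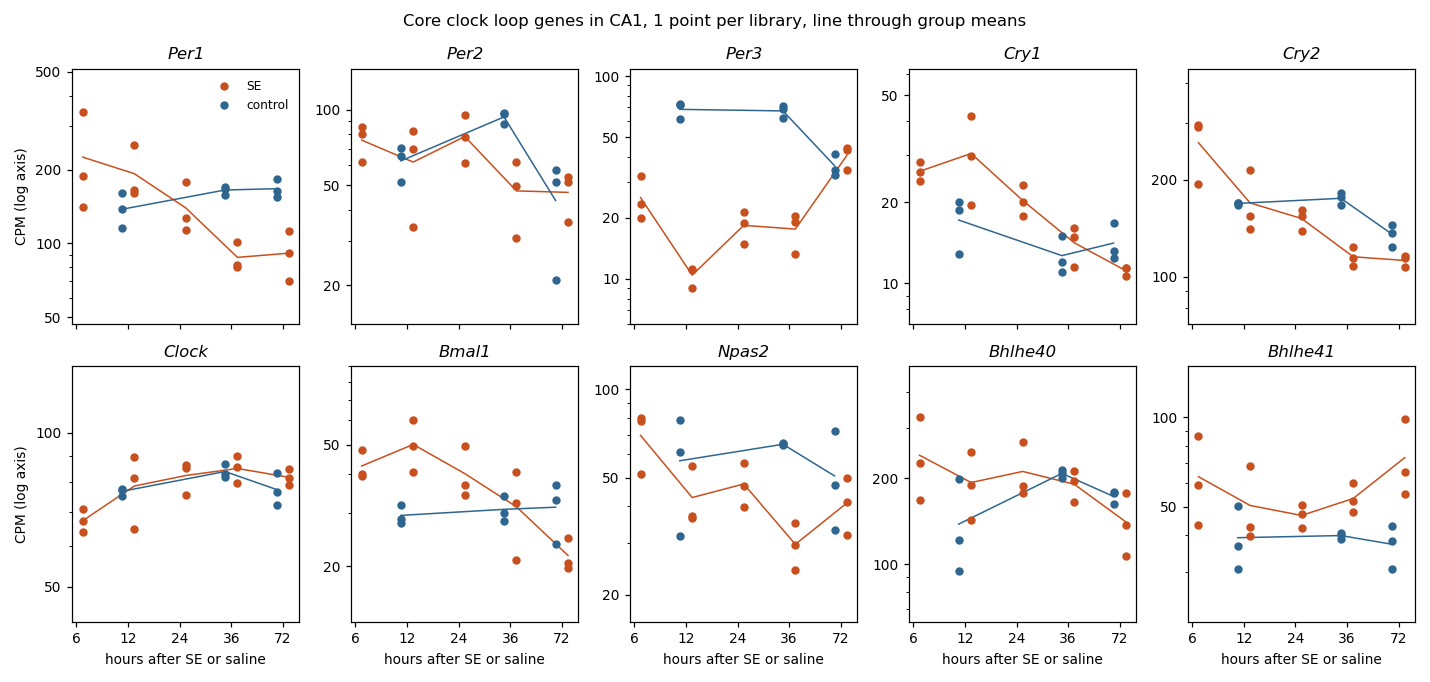
Level of each core clock loop gene in CPM (log axis, its own scale per panel) in every library by hours after SE or saline, with a line through the group means; orange is SE and blue is control. Per3 sits at 9.0 to 20.5 CPM at 12 and 36 h after SE against 61.3 to 72.6 CPM in the matching controls and meets the controls at 72 h, while Clock stays between 64.0 and 90.0 CPM in all 24 libraries.

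The comparison of SE with time-matched controls asked which clock genes differed after SE. A gene was called a differentially expressed gene (DEG) where the edgeR adjusted p did not exceed 0.05 and the log2 fold change (log2FC) was 0.66 or more in size. At 12 h, 3 of the 10 genes were called, Cry1 and Bmal1 higher and Per3 lower, where 25.3% of all genes tested were called in either direction, 13.9% higher and 11.4% lower. At 36 h, 4 were called, Per1, Per2, Per3 and Npas2, all lower, against 21.6% of all genes in either direction and 8.92% called lower. At 72 h, 2 were called, Bhlhe41 higher and Per1 lower, against 19.5% of all genes (15.3% higher and 4.21% lower). Over the 10 genes the median log2FC at 12 h was 0.20, beside 0.01 over all genes tested. It was -0.37 beside 0.00 at 36 h, and -0.27 beside 0.10 at 72 h. No gene of the loop was called in the same direction at all of 12, 36 and 72 h. The 3 SE libraries lay wholly on one side of the 3 controls for 3 of the 10 genes at 12 h (47.7% of all genes), 6 at 36 h (51.9%) and 4 at 72 h (32.8%).

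**Figure D2:**
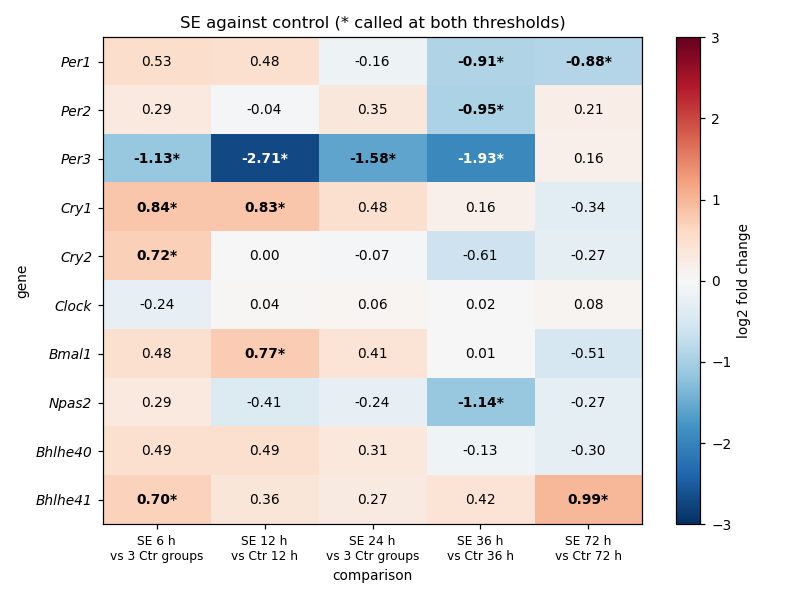
Log2FC of each gene (rows) in the 5 comparisons of an SE group with controls (columns), from -3 in blue to 3 in red; an asterisk marks a DEG. Per3 is lower at 6, 12, 24 and 36 h (log2FC -1.13, -2.71, -1.58 and -1.93) and 0.16 at 72 h, and the other called values lie between -1.14 and 0.99.

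Of the negative limb, Per3 changed most. Its product is a PER family protein with a lesser role in the core feedback than PER1 and PER2. Per3 (ENSMUSG00000028957.13, GRCm39 chromosome 4, 151081373 to 151129140, minus strand) had 11.2, 11.1 and 9.0 CPM in the SE 12 h libraries and 72.6, 71.7 and 61.3 CPM in Ctr 12 h. The groups were far apart, and Per3 was 6.53-fold lower after SE (log2FC -2.71 ± 0.20 (SE of the estimate), edgeR adjusted p = 1.00e-08). In SE 36 h it had 20.5, 13.2 and 19.1 CPM against 71.3, 68.8 and 61.9 CPM in Ctr 36 h. This was again without overlap and 3.82-fold lower (log2FC -1.93 ± 0.19, edgeR adjusted p = 2.58e-07). At 72 h the SE libraries had 44.4, 43.1 and 34.6 CPM and the controls 41.3, 34.6 and 32.6 CPM. Here the groups overlapped and the log2FC of 0.16 (95% interval -0.21 to 0.53) did not pass the test. The signed log2FC of Per3 at 72 h was above its mean at 12 and 36 h by 2.48 ± 0.23 (edgeR adjusted p = 2.36e-06). In this test 13.3% of all genes were called (9.68% higher and 3.64% lower). The labels give each library a number without explaining it, and these fall into the ranges 92 to 104, 109 to 122 and 162 to 169. Among libraries of the same range, the difference in mean log2 CPM was -2.44 at 12 h (1 SE and 1 control library) and -2.02 at 36 h (2 and 3 libraries), and no range held both groups at 72 h.

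Per1, whose protein represses CLOCK and BMAL1 and whose gene responds to activity, was lower at the later time points. Per1 (ENSMUSG00000020893.18, chromosome 11, 68986035 to 69002300, plus strand) had 165, 160 and 252 CPM in SE 12 h and 138, 160 and 115 CPM in Ctr 12 h. The SE libraries were at or above the highest control, and the log2FC of 0.48 ± 0.26 did not pass the test (edgeR adjusted p = 0.147). In SE 36 h its libraries had 81.6, 80.3 and 101 CPM, all below the 167, 170 and 158 CPM of Ctr 36 h. Per1 was thus 1.88-fold lower (log2FC -0.91 ± 0.26, edgeR adjusted p = 0.0105), and -1.03 in log2 CPM within the shared range of label numbers. At 72 h the SE libraries had 112, 70.4 and 91.1 CPM, again all below the 183, 154 and 164 CPM of the controls. The decrease was 1.83-fold (log2FC -0.88 ± 0.26, edgeR adjusted p = 0.0167), and the call was lost without Ctr 72 h replicate 1 (-0.80, edgeR adjusted p = 0.0515) or SE 72 h replicate 2 (-0.72, adjusted p = 0.079). The SE effect on Per1 was lower at 36 h than at 12 h by 1.40 ± 0.37 on the log2 scale (log2FC -1.40, edgeR adjusted p = 0.0382; 3.36% of all genes called in either direction and 1.38% lower), a call that was lost in 10 of 13 omissions of a library (adjusted p from 0.055 to 0.0963) and with thinned counts (-1.35, adjusted p = 0.0583).

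Per2, the other main PER repressor, changed with SE at 36 h only among the time-matched comparisons, a difference between times that was not called. Per2 (ENSMUSG00000055866.10, chromosome 1, 91343700 to 91387069, minus strand) had 49.6, 31.0 and 61.9 CPM in SE 36 h and 87.4, 97.0 and 96.0 CPM in Ctr 36 h. No SE library reached a control, and Per2 was 1.93-fold lower (log2FC -0.95 ± 0.26, edgeR adjusted p = 0.00849), and -1.25 in log2 CPM within the shared range of label numbers. In SE 12 h it had 34.0, 81.8 and 69.7 CPM and in Ctr 12 h 70.5, 65.3 and 51.7 CPM. These groups overlapped (log2FC -0.04, 95% interval -0.55 to 0.46), with the lowest and highest values both in SE. At 72 h Per2 had 35.6, 53.7 and 51.3 CPM after SE and 51.7, 21.1 and 57.7 CPM in controls, where the lowest value belonged to the control library that stood apart (log2FC 0.21, 95% interval -0.32 to 0.74). The SE effect at 36 h minus that at 12 h was -0.91 ± 0.37 for Per2 (edgeR adjusted p = 0.167).

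Of the cryptochromes, the strongest repressors of the loop, Cry1 was higher early. Cry1 (ENSMUSG00000020038.11, chromosome 10, 84967560 to 85021252, minus strand) had 19.5, 29.7 and 41.8 CPM in SE 12 h and 18.7, 20.0 and 12.8 CPM in Ctr 12 h. The groups overlapped by SE 12 h replicate 1, and Cry1 was 1.77-fold higher (log2FC 0.83 ± 0.23, edgeR adjusted p = 0.00678), with 0.61 in log2 CPM between the libraries of the shared range. The call was lost without SE 12 h replicate 3 (0.53, edgeR adjusted p = 0.0678) or Ctr 12 h replicate 3, where the log2FC of 0.64 missed its threshold. At 36 h Cry1 had 14.9, 16 and 11.5 CPM after SE and 15, 11 and 12.0 CPM in controls (log2FC 0.16, 95% interval -0.29 to 0.61). At 72 h the SE libraries, at 11.4, 11.4 and 10.6 CPM, were all below the controls at 13.2, 16.7 and 12.4 CPM, but the log2FC of -0.34 did not pass (edgeR adjusted p = 0.312).

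Cry2, the more abundant cryptochrome of CA1 in these controls, showed no called difference with time-matched controls. Cry2 (ENSMUSG00000068742.12, chromosome 2, 92233894 to 92264474, minus strand) had 124, 114 and 108 CPM in SE 36 h, all below the 177, 182 and 167 CPM of Ctr 36 h. This difference passed the p threshold but not that of fold change (log2FC -0.61 ± 0.14, edgeR adjusted p = 0.00291), which 31.6% of all genes passed, and it was called without SE 36 h replicate 1 (-0.66, adjusted p = 0.00569). In SE 12 h Cry2 had 154, 141 and 214 CPM around the 170, 170 and 167 CPM of Ctr 12 h (log2FC 0.00, 95% interval -0.28 to 0.28). At 72 h it had 114, 107 and 116 CPM after SE and 145, 124 and 137 CPM in controls, without overlap (log2FC -0.27, edgeR adjusted p = 0.171).

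In the positive limb, Bmal1 was higher at 12 h. Bmal1 (ENSMUSG00000055116.9, chromosome 7, 112806152 to 112914735, plus strand), the partner that CLOCK and NPAS2 both need, had 49.4, 40.8 and 60.0 CPM in SE 12 h and 31.8, 27.7 and 28.6 CPM in Ctr 12 h. All SE libraries exceeded all controls, by 1.70-fold (log2FC 0.77 ± 0.18, edgeR adjusted p = 0.00271) and by 0.78 in log2 CPM within the shared range. Without SE 12 h replicate 3 the log2FC of 0.62 missed its threshold. At 36 h Bmal1 had 32.3, 40.7 and 21 CPM after SE and 28.2, 34.1 and 29.9 CPM in controls (log2FC 0.01, 95% interval -0.35 to 0.37). At 72 h it had 20.6, 19.8 and 24.8 CPM after SE and 37.0, 23.7 and 33.0 CPM in controls. The 72 h groups overlapped at the control library that stood apart, and the log2FC of -0.51 ± 0.19 just missed the p threshold (edgeR adjusted p = 0.0506), while without that library it was -0.69 (adjusted p = 0.0194). The SE effect on Bmal1 at 72 h was lower than its mean effect at 12 and 36 h by 0.90 ± 0.23 on the log2 scale (log2FC -0.90, edgeR adjusted p = 0.0122), opposite in sign to that on Per3. With the range of label numbers in the fit this call was lost (-0.96, adjusted p = 0.0633). Cry1 had a difference of -0.83 ± 0.29 in the same test, which missed the threshold (edgeR adjusted p = 0.0523).

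Npas2, which can replace CLOCK in the forebrain, was lower at 36 h. Npas2 (ENSMUSG00000026077.16, chromosome 1, 39232705 to 39402323, plus strand) had 35.2, 29.6 and 24.3 CPM in SE 36 h and 65.5, 65.0 and 64.5 CPM in Ctr 36 h. The groups lay apart, with Npas2 2.21-fold lower (log2FC -1.14 ± 0.25, edgeR adjusted p = 0.00149; -1.01 in log2 CPM within the shared range). The summed neuronal markers were also lower, at 9720 to 11300 CPM in SE 36 h and 15600 to 16800 CPM in Ctr 36 h. They were lower as well at 12 h (9740 to 11300 against 12600 to 19600 CPM) and at 72 h (9630 to 9690 against 13600 to 14900 CPM), where Npas2 was not called. Within SE 36 h the sums had the opposite order to Npas2, at 9719, 10020 and 11310 CPM in replicates 1, 2 and 3. The part of these markers in the result was not tested. At 12 h Npas2 ranged from 36.6 to 54.7 CPM after SE and from 31.7 to 78.7 CPM in controls (log2FC -0.41, edgeR adjusted p = 0.195), and without Ctr 12 h replicate 3, the lowest control, it was -0.72 (adjusted p = 0.0164). That control is the library whose CA1, CA3, dentate and neuronal markers differed from the rest of its group, as given above. At 72 h it ranged from 32.0 to 49.9 CPM after SE and from 33.1 to 72.0 CPM in controls (log2FC -0.27, edgeR adjusted p = 0.472).

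Clock was the steadiest of the 10 genes. Clock (ENSMUSG00000029238.12, chromosome 5, 76342860 to 76452846, minus strand), which encodes the partner of BMAL1, had group means within a 1.27-fold range, against 6.56-fold for Per3 and 1.74-fold to 2.72-fold for the others. At 12 h its log2FC was 0.04 (95% interval -0.17 to 0.24), at 36 h it was 0.02 (-0.18 to 0.22), and at 72 h it was 0.08 (-0.13 to 0.28). These intervals lie within the fold change threshold on both sides.

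Among the E-box repressors, Bhlhe41 was higher at 72 h. Bhlhe41 (ENSMUSG00000030256.12, chromosome 6, 145803969 to 145811430, minus strand) had 98.8, 65.2 and 55.3 CPM in SE 72 h and 30.7, 43.0 and 38.2 CPM in Ctr 72 h. The groups did not overlap, and Bhlhe41 was 1.99-fold higher (log2FC 0.99 ± 0.26, edgeR adjusted p = 0.00718). Astrocyte and microglial markers were also highest at 72 h after SE, as given above. Within SE 72 h, however, replicate 1, with the most Bhlhe41, had the lowest sums of both. They were 12870 and 1250 CPM, against 14410 and 1696 CPM in replicate 2 and 13860 and 1814 CPM in replicate 3. Replicate 1 also had the lowest CA1 sum (302 CPM, against 626 and 667) and the highest dentate sum (230 CPM, against 17.5 and 24.5). The part of these markers in the Bhlhe41 result was not tested. The call was lost without SE 72 h replicate 1, the highest library (0.71, edgeR adjusted p = 0.0584), and with the range of label numbers in the fit (0.44, adjusted p = 0.342), where SE and control libraries of 72 h shared no range. At 36 h Bhlhe41 had 52.0, 59.8 and 47.9 CPM after SE, all above the 40.8, 40.1 and 38.9 CPM of controls, with a log2FC of 0.42 that did not pass (edgeR adjusted p = 0.222). At 12 h it had 42.7, 39.9 and 68.7 CPM against 36.7, 50.2 and 30.9 CPM, with overlap (log2FC 0.36, adjusted p = 0.268). Bhlhe40 (ENSMUSG00000030103.12, chromosome 6, 108636626 to 108644502, plus strand) was called in none of these comparisons, with libraries from 94.6 to 327 CPM. Its log2FC at 12 h was 0.49 (edgeR adjusted p = 0.153), or 0.83 without Ctr 12 h replicate 1, the highest control (adjusted p = 0.0225), and at 36 and 72 h it was -0.13 and -0.30 (adjusted p = 0.755 and 0.437).

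Time of day is part of these comparisons, since clock genes vary over the day. The clock hour of injection is not given in the sources used here. If all mice were injected at a fixed hour, 12 and 36 h fall at the same phase of the day and 72 h, with 24 h, at the opposite phase. Between Ctr 36 h and Ctr 12 h no gene of the loop was called, and neither was any of the 18153 genes by edgeR (3.6% had an unadjusted p under 0.05, as did Per2 and Bhlhe40, with log2FC of 0.58 and 0.59). DESeq2 called 5 genes, limma-voom 0 and an edgeR fit of the compared groups alone 179. Between Ctr 72 h and the mean of Ctr 12 h and Ctr 36 h, Per2 and Per3 were called lower, where 3.07% of all genes were called and 1.88% called lower. Per3 was 1.86-fold lower (log2FC -0.90 ± 0.17, edgeR adjusted p = 0.00717), with every Ctr 72 h library, at most 41.3 CPM, below every earlier control, at least 61.3 CPM. Per2 was 1.90-fold lower (log2FC -0.92 ± 0.24, edgeR adjusted p = 0.0334), but this was lost in 5 of 9 omissions, among them that of the Ctr 72 h library that stood apart (-0.49, adjusted p = 0.419), where the value for Per3 was -0.86 (adjusted p = 0.0357). The call of Per2 was also lost without the factor of unwanted variation (-0.82, adjusted p = 0.115) and with limma-voom (-0.95, adjusted p = 0.118). Ctr 72 h held only label numbers 167 to 169, and with their range in the fit neither gene was called (adjusted p = 0.227 for Per2 and 0.0741 for Per3). Of the earlier controls only Ctr 12 h replicate 3 (163) lay in that range, with 61.3 CPM of Per3 and 51.7 CPM of Per2. Among controls, range and time can be told apart only through that library. The fit of all libraries also draws on SE 12 h replicate 1 (162), which lies in that range while the rest of its group does not. What the range stands for is not given.

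After SE, the same contrast gave another order of genes. SE 72 h against the mean of SE 12 h and SE 36 h had Per3 higher by 2.99-fold (log2FC 1.58 ± 0.16, edgeR adjusted p = 5.82e-07), Cry1 lower by 1.86-fold (log2FC -0.89 ± 0.20, edgeR adjusted p = 0.00283) and Bmal1 lower by 1.81-fold (log2FC -0.86 ± 0.17, edgeR adjusted p = 0.000724), where 16.2% of all genes were called (11.3% higher and 4.94% lower). Per3 thus moved in opposite directions in controls and after SE, and the difference between the contrasts is the 2.48 given above. Per2, called in controls, had -0.22 after SE, and the difference between the contrasts, 0.70 ± 0.33, was not called (edgeR adjusted p = 0.143).

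**Figure D3:**
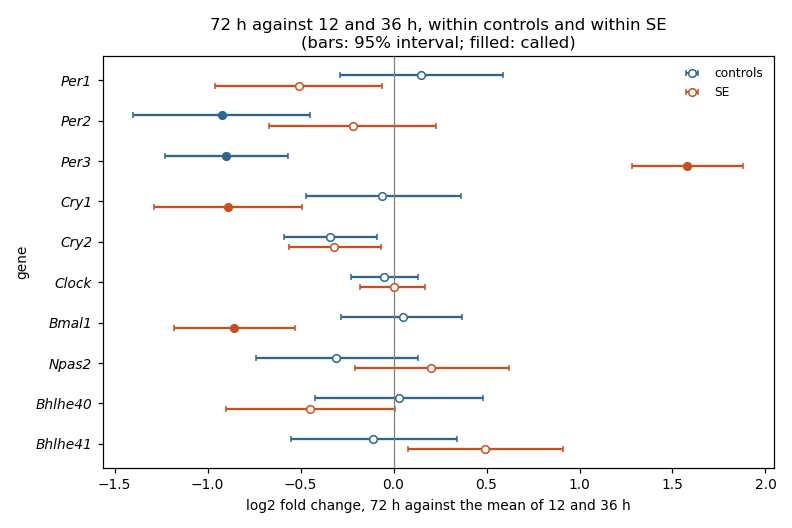
Log2FC of 72 h against the mean of 12 and 36 h (horizontal axis) for each gene, in controls (blue) and after SE (orange); bars are 95% intervals and filled points are DEGs. Per3 is at -0.90 in controls and 1.58 after SE, and Clock is at -0.05 and 0.00.

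Between SE time points, a DEG needed an absolute log2FC of at least 1. Per3 had its lowest level at 12 h, which was 2.40-fold lower than at 6 h (log2FC -1.26 ± 0.19, edgeR adjusted p = 0.00219; 1.36% of all genes called, 0.903% lower). It was 2.31-fold higher at 72 h than at 36 h (log2FC 1.21 ± 0.19, edgeR adjusted p = 0.000432; 4.16% called, 3.12% higher) and 2.21-fold higher than at 24 h (log2FC 1.14 ± 0.19, edgeR adjusted p = 0.000207; 10.9% called, 8.04% higher). From 12 to 36 h after SE, Per1 was 2.19-fold lower (log2FC -1.13 ± 0.26, edgeR adjusted p = 0.00651) and Cry1 2.15-fold lower (log2FC -1.10 ± 0.23, edgeR adjusted p = 0.00318), where 6.18% of all genes were called and 2.96% called lower. Both calls rested on SE 12 h replicate 3, without which the log2FC was -0.89 for Per1 and -0.81 for Cry1. That of Cry1 was also lost without SE 36 h replicate 3 (-0.97). No gene of the loop was called between 12 and 24 h (3.22% of all genes) or between 24 and 36 h (0.523%). Some differences passed the p threshold with a smaller fold. These were Cry2 from 6 to 12 h (log2FC -0.63, 4.58% of all genes past the p threshold), Per3 from 12 to 24 h (0.81, 9.15%), Per3, Cry2 and Bmal1 from 12 to 36 h (0.75, -0.55 and -0.69, 16.4%), and Per2, Cry1, Cry2 and Bmal1 from 24 to 72 h (-0.76, -0.86, -0.43 and -0.89, 25.9%).

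SE 6 h and SE 24 h had no control of their own time, so time of day and SE cannot be told apart in their comparisons with the mean of the 3 control groups. At 6 h, 4 genes were called (22% of all genes), Cry1, Cry2 and Bhlhe41 higher (15.8%) and Per3 lower (6.21%). Cry2 had 194, 293 and 296 CPM in SE 6 h, above its highest control library of 182 CPM, with a log2FC of 0.72 ± 0.11 (edgeR adjusted p = 5.57e-05) that dropped below the threshold without SE 6 h replicate 2 or 3 (0.62 and 0.61). Cry1 had 26, 28.2 and 23.9 CPM, above its highest control of 20.0 CPM, with a log2FC of 0.84 ± 0.18 (edgeR adjusted p = 0.000931), or 0.53 with the range of label numbers in the fit. Bhlhe41, at 86.5, 59.1 and 43.5 CPM, had a log2FC of 0.70 ± 0.20 (edgeR adjusted p = 0.00779) that rested on SE 6 h replicate 1 (0.40 without it, adjusted p = 0.147) and fell just short without Ctr 12 h replicate 3 or Ctr 72 h replicate 1 (0.65 each). That call was also lost with limma-voom (0.66) and with the range of label numbers in the fit (0.53). Per3 had 32.2, 20.0 and 23.3 CPM, with SE 6 h replicate 1 just below the lowest control of 32.6 CPM, and a log2FC of -1.13 ± 0.16 (edgeR adjusted p = 1.92e-05). Per1 reached 141, 189 and 344 CPM, its highest value of all libraries, with a log2FC of 0.53 ± 0.20 that passed the p threshold only (edgeR adjusted p = 0.0449), as did Clock (log2FC -0.24) and Bmal1 (log2FC 0.48), where 39.9% of all genes passed it. Per1 and Bhlhe40 were called without SE 6 h replicate 1 (0.77 and 0.69). The summed immediate early genes ranged from 1300 to 5170 CPM in SE 6 h and from 313 to 1100 CPM in controls, and within SE 6 h both Per1 and that sum were highest in replicate 3. Their part in the result was not tested. At 24 h only Per3 was called (24.2% of all genes, 9.22% lower), with 18.9, 21.4 and 14.8 CPM and a log2FC of -1.58 ± 0.17 (edgeR adjusted p = 2.74e-07). Cry1 and Bmal1 passed the p threshold only (log2FC 0.48 and 0.41), where 41.4% of all genes passed it. Against Ctr 72 h, which lies at the same phase of the day under a fixed injection hour, Per3 at 24 h was 1.98-fold lower (log2FC -0.99 ± 0.19, edgeR adjusted p = 0.000659; 21.8% of all genes called, 14% higher and 7.75% lower). Per2 was higher in that comparison (log2FC 0.97 ± 0.27, edgeR adjusted p = 0.0103), a call lost without Ctr 72 h replicate 2 (0.49, adjusted p = 0.22) or SE 24 h replicate 3 (0.79, adjusted p = 0.0553), without the factor of unwanted variation (0.86, adjusted p = 0.0573) and with the range of label numbers in the fit (0.13, adjusted p = 0.831).

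Of the 8 clock output genes, which are transcribed under control of the loop and several of which act back on it, 6 were lower and 1 higher at 12 h, 7 lower at 36 h and 2 lower at 72 h. Of all genes, 11.4%, 8.92% and 4.21% were called lower. The median log2FC of the list was -1.41, -1.25 and -0.46, beside 0.01, 0.00 and 0.10 over all genes. Dbp, a D-box activator, fell at all of these times (log2FC -3.76 ± 0.34, -2.38 ± 0.31 and -1.11 ± 0.31, edgeR adjusted p = 1.26e-07, 7.95e-06 and 0.0105). Hlf, another D-box activator, fell likewise (log2FC -2.64, -2.67 and -1.21), and Tef fell at 12 and 36 h (log2FC -1.61 and -1.64). Nfil3, which represses through D-boxes, rose at 12 h (log2FC 3.13 ± 0.60, edgeR adjusted p = 0.000454) from 6.85 ± 0.788 (SD, n = 3) to 59.0 ± 49.8 CPM, with a wide spread after SE. Nr1d1 and Nr1d2, which encode the REV-ERB repressors of Bmal1, fell at 12 h (log2FC -0.95 and -1.80) and 36 h (log2FC -0.85 and -0.78). Ciart fell at both times (log2FC -1.22 and -1.68), and Usp2 fell at 36 h (log2FC -0.72).

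Dbp, Tef and Hlf shared part of the time course of Per3. In the test of the SE effect at 72 h against its mean at 12 and 36 h, 5 of the 8 clock output genes were called higher and 1 lower. Over all genes, 9.68% were called higher and 3.64% lower in that test. The SE effect at 72 h was above the mean effect at 12 and 36 h by 1.97 ± 0.38 for Dbp, 1.44 ± 0.33 for Hlf and 1.19 ± 0.17 for Tef (edgeR adjusted p = 0.0019, 0.00637 and 0.000234). At 72 h, however, Dbp was still at 16.6 ± 3.74 CPM (SD, n = 3) against 36.3 ± 8.99 CPM in controls, and Hlf at 72.4 ± 21.3 against 169 ± 42.4 CPM, whereas the libraries of Per3 overlapped. Any part of the D-box genes in the change of Per3 was not tested.

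**Figure D4:**
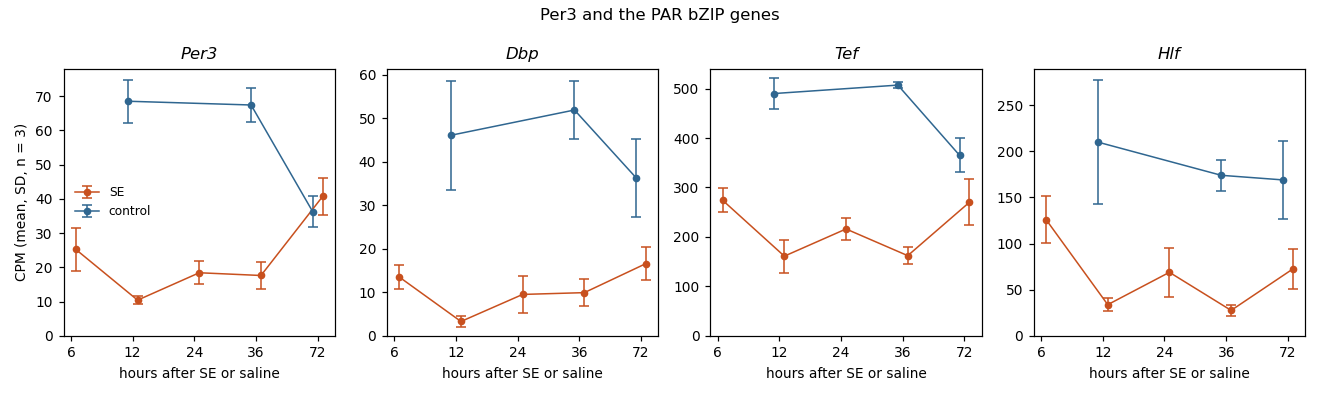
Mean CPM (points, with SD bars, n = 3) of Per3, Dbp, Tef and Hlf by hours after SE or saline, in SE (orange) and control (blue). All of them are lower after SE at 12 and 36 h, and at 72 h Dbp is at 16.6 CPM after SE and 36.3 CPM in controls while Per3 overlaps its controls.

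The calls among 23 auxiliary clock genes (kinases, ubiquitin ligases, nuclear receptors and cofactors) follow. Of all genes, 25.3%, 21.6% and 19.5% were called in either direction at 12, 36 and 72 h. At 12 h none was higher and 1 was lower, Crtc1 (log2FC -0.87), a coactivator of CREB. At 36 h Timeless was higher (log2FC 1.17) and Crtc1 lower (log2FC -1.10). At 72 h Fbxl21 and Timeless were higher (log2FC 1.05 and 1.03) and Bmal2 and Prkaa2 lower (log2FC -0.68 and -0.72). The list had medians of 0.07, -0.03 and 0.02, beside 0.01, 0.00 and 0.10 over all genes.

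Signals known to act on Per1 were also followed. Of 8 immediate early genes, 7 were higher at 12 h, none was called at 36 h, and Arc and Nr4a1 were lower at 72 h (log2FC -1.53 and -1.35), with list medians of 3.03, 0.23 and -1.11. Of 8 glucocorticoid response genes, 4 were higher and 1 lower at 12 h, 2 higher and 2 lower at 36 h, and 2 higher and none lower at 72 h, with medians of 0.75, -0.02 and 0.36, beside 0.01, 0.00 and 0.10 over all genes. Of all genes, 25.3%, 21.6% and 19.5% were called in either direction. Per1 itself had a log2FC of 0.48, -0.91 and -0.88 at these times. Against the mean of the 3 control groups, 7 immediate early genes were higher at 6 h and all 8 at 24 h (medians 2.07 and 2.63). For the glucocorticoid list, 6 were higher at 6 h, and 5 were higher and 2 lower at 24 h. In these comparisons 22% and 24.2% of all genes were called. Per1 had a log2FC of 0.53 at 6 h and -0.16 at 24 h (edgeR adjusted p = 0.0449 and 0.572). Any part of these lists in the levels of Per1 was not tested.

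Across the 24 libraries, the genes whose log2 CPM followed each member most closely were named as a description, by Pearson r over 13726 genes. All these values share the libraries and the grouping by SE and time. Per3 was followed by Shroom2 (r = 0.946), Aifm3 (r = 0.942) and Dbp (r = 0.936). Cry2 was followed by Nsmce3 (r = 0.925), Cry1 by Aloxe3 (r = 0.919), Bmal1 by Cramp1 (r = 0.894) and Per1 by Ubald1 (r = 0.893). The closest values were lower for Clock (AU022252, r = 0.811), Per2 (Gm12063, r = 0.798), Bhlhe41 (Slc1a5, r = 0.794), Npas2 (Sdk2, r = 0.791) and Bhlhe40 (Mchr1, r = 0.779). Within the loop, the highest values were those of Per1 with Cry2 (r = 0.79) and Cry1 with Bmal1 (r = 0.76), and the lowest those of Cry2 with Clock (r = -0.71) and Per3 with Bmal1 (r = -0.61).

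**Figure D5:**
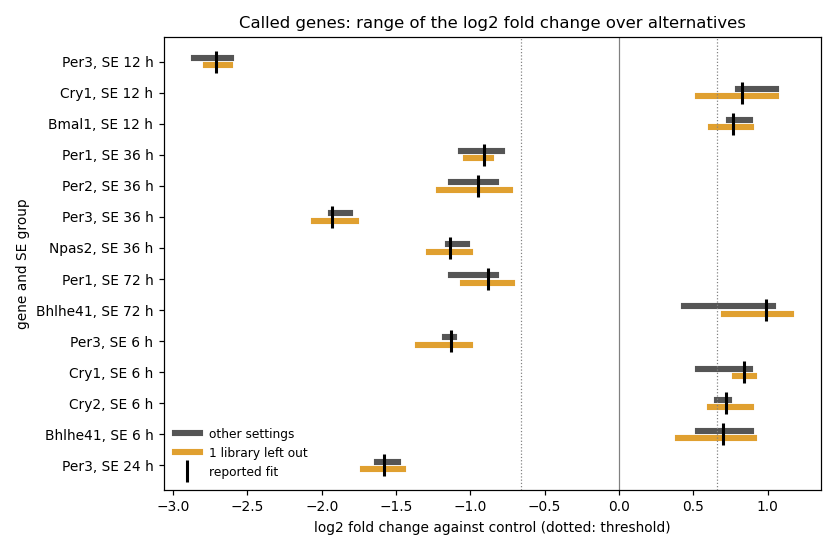
Range of the log2FC of each DEG of the loop in the comparisons of an SE group with controls (rows) over 11 other settings (grey) and over the omission of 1 library at a time (yellow), with the reported value as a black mark and the threshold dotted. Per3 at 12 h stays between -2.86 and -2.61 over the settings, and Bhlhe41 at 72 h reaches down to 0.44.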

How the data were processed

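The authors trimmed paired-end reads with Trim Galore 0.6.6, aligned them with STAR 2.7.8a to GRCm39 with GENCODE M26, sorted them with SAMtools 1.10 and deposited raw whole-number counts per gene from HTSeq 0.13.5, made without regard to strand. Of 18647 identifiers, 18552 matched GENCODE M39. Here, R 4.3.3 with edgeR 4.0.16 was used. Counts were scaled with TMM, filtered with filterByExpr (18153 genes) and fitted to all 24 libraries, with group and 1 factor of unwanted variation from the residuals (RUVr) as terms. Genes were tested with the quasi-likelihood test and Benjamini-Hochberg adjustment over all genes tested. Log2 CPM used a prior count of 2. On simulated data for SE 12 h against Ctr 12 h, 72% of 100 genes with an absolute log2FC of 1 and 95% of 100 with 1.5 were recovered, with 4 false calls among 17480. Only these genes, chosen above a minimum level, differed between groups in the simulation, and no unwanted variation was added. The real data differ in both respects, so these rates need not hold for them. Alternatives used DESeq2 1.42.0, limma 3.58.1, other scalings, filters and factors, thinned counts and omission of each library. Named genes are the 10 members, genes of the lists for clock output, auxiliary clock, immediate early, glucocorticoid response and cell type markers, and the 3 genes most alike to each member, of which the first is printed except for Per3. The members and lists were chosen with earlier results of these data known, and 1 gene of the auxiliary list is not reported here. Motif windows came from the GRCm39 genome by script.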

Additional observations from a re-analysis of the deposited data

Results flagged for a closer look

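The effect of SE differed between time points for Per3, Bmal1 and Per1 by a test of the difference itself. For Per3, the effect at 72 h minus the mean effect at 12 and 36 h was 2.48 ± 0.23 on the log2 scale (edgeR adjusted p = 2.36e-06), from 0.16 at 72 h against -2.71 and -1.93, in a test that called 13.3% of all genes. For Bmal1 the same difference was -0.90 ± 0.23 (edgeR adjusted p = 0.0122), from -0.51 against 0.77 and 0.01, a call lost with the range of label numbers in the fit (adjusted p = 0.0633). For Per1, the effect at 36 h minus that at 12 h was -1.40 ± 0.37 (edgeR adjusted p = 0.0382), from -0.91 against 0.48, where 3.36% of all genes were called. That call was lost in 10 of 13 omissions of a library and with thinned counts. Groups of 3 libraries are too small for a test of single outlying libraries.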

How the results depend on the processing

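Of 29 calls of members over all comparisons, 21 were kept in each of the other settings, 18 in each omission of a library and 15 in all of these, and none changed sign. Without a log2FC threshold, the count of called members went from 4 to 5 at 36 h, from 4 to 7 for SE 6 h, from 1 to 3 for SE 24 h against the 3 control groups, from 1 to 2 for SE 12 h against SE 6 h, from 0 to 1 for SE 24 h against SE 12 h, from 2 to 5 for SE 36 h against SE 12 h and from 1 to 5 for SE 72 h against SE 24 h, and was the same in the other comparisons. Over omissions of a library the count ranged from 1 to 4 at 12 h, 4 to 5 at 36 h, 1 to 3 at 72 h, 3 to 5 for SE 6 h, 1 to 2 for SE 24 h against Ctr 72 h and for Ctr 72 h against earlier controls, 3 to 4 for SE 72 h against earlier SE, 2 to 3 and 0 to 2 for the differences of the SE effect at 72 and 36 h, and 0 to 2 for SE 36 h against SE 12 h, and it did not move for the others (0 or 1). Cry1 in the difference at 72 h passed the test in 4 other settings, down to -1.68 with the range of label numbers, which also called Cry1 at 72 h (-1.12) and Bhlhe41 at 12 h (0.67). The difference of the SE effect at 36 and 12 h was called for Per3 (0.79) with 2 RUVr factors and without Ctr 72 h replicate 2, for Per3 (0.94) and Bmal1 (-0.99) without SE 36 h replicate 2 and for Per2 (-1.24) without SE 12 h replicate 1. Over all genes, Ctr 72 h against earlier controls gave 557 calls, 235 without the RUVr factor, 62 with limma-voom, 185 with thinned counts, 843 with the compared groups only and 18 without Ctr 72 h replicate 2. At 36 h, scaling by library size gave 2783 of 3988 calls upward, against 2307 of 3926 as reported, and moved the median of all genes to 0.13. The labels do not say that replicate numbers pair the libraries, and same-numbered SE and control libraries deviated together in 4 of 9 pairs (r over 0.1, range -0.201 to 0.181). Differently numbered pairs reached at most 0.067 at 12 h and 0.08 at 36 h, but ranged from -0.299 to 0.252 at 72 h. With a replicate block the counts of called members were 3 at 12 h, 4 at 36 h and 2 at 72 h, as without it.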
